A study of Mus musculus with 64 samples.

Results

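Striatal punches of 10 mice with high and 10 mice with low haemoglobin transcripts were compared, out of 32 mice with RNA sequencing counts. They were chosen by a measured value, the summed CPM (counts-per-million of the library total) of Hba-a1, Hba-a2 and Hbb-bs, with the 2 sequencing runs of each mouse added together. Mice were ranked within each combination of genotype and set, where set 1 holds mice 1 to 16 and set 2 holds mice 17 to 32. The top 3 and bottom 3 were taken where a combination had 10 mice, and the top 2 and bottom 2 where it had 6. The 12 mice between them are called the middle mice here.

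The study compared mice carrying 1 functional copy of Cyfip2 (N/-, described in the labels as binge-resistant) with mice carrying the C57BL/6N allele on both chromosomes (N/N, binge-prone), all on a C57BL/6NJ background. Cyfip2 encodes a subunit of the WAVE complex that steers actin branching. Punches of the striatum were collected on Day 24, directly after 5 min on an elevated plus maze, from mice of both sexes aged 82 to 84 days. Each mouse gave 1 library, and no diet or training group is labelled. The high group held 5 N/- and 5 N/N mice, and so did the low group. By sex, the high group had 5 females and 5 males and the low group 8 females and 2 males. Sex and haemoglobin class are partly confounded. In N/- mice of set 1 the high mice were 1 female and 2 males and the low mice 3 females, in N/- mice of set 2 they were 1 female and 1 male against 2 females, and in N/N mice of set 2 they were 1 female and 2 males against 3 females. In N/N mice of set 1 both high mice were labelled female and both low mice male. Over all of set 2, the high mice were 2 females and 3 males, and the 5 low mice were all female. With sex as a term, high versus low values within set 2 alone thus rest mainly on its 2 high and 5 low females. No combination held both a high and a low male. In N/N mice of set 1, class and sex cannot be told apart, and the other combinations had 1 high female each. The fits of all 20 mice and of set 1 thus also lean on the sex term. The 20 mice came from 15 cages, and only 2 cages held both a high and a low mouse.

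Haemoglobin, the oxygen carrier of red blood cells, joins α-globin chains (Hba-a1 and Hba-a2 in adult mice) with β-globin chains (Hbb-bs, Hbb-bt or the Hbb-b1 and Hbb-b2 pair, depending on the strain's haplotype). Young red cells keep globin messenger RNA after they lose their nucleus, so blood left in the vessels of a dissected brain region is a well-known source of globin reads. Haem, the iron-holding ring of the protein, is made by a chain of enzymes whose erythroid entry step is catalysed by Alas2. Globin transcripts have also been described at low levels in neurons and glia, so a globin read does not by itself name its cell of origin. In bulk tissue, fewer cells of a type and less RNA per cell cannot be told apart.

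The start sites of an α-globin and a β-globin gene that chose the mice, and of Alas2, are shown to set the erythroid genes side by side. The RefSeq table of GRCm38.p6 holds the 250 bases upstream of each start, printed 5′ to 3′ in the direction of the gene. Capitals mark 4 motifs on either strand, and neighbouring matches run together. GATAA is the core of the site bound by GATA factors. The CACCC box is bound by Krüppel-like factors. The CCAAT box is a common promoter element. ATATAA is a TATA-type element.
Hba-a1, chr11:32283422-32283671, plus strand: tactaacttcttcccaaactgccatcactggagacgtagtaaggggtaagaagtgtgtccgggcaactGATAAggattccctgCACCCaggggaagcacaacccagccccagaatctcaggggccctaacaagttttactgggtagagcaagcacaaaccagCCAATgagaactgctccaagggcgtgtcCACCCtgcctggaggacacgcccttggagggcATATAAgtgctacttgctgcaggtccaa
Hbb-bs, chr7:103827929-103828178, minus strand: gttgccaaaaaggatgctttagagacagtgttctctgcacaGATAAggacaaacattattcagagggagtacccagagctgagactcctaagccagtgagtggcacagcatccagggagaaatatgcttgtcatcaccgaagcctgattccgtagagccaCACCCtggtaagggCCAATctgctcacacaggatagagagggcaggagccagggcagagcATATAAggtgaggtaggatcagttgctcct
Alas2, chrX:150547167-150547416, plus strand: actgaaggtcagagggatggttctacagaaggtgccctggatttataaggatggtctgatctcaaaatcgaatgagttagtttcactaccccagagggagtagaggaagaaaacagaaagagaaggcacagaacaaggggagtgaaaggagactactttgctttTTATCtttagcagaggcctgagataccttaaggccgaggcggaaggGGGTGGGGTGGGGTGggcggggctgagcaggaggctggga
The Hba-a2 window is the same sequence shifted by 3 bases, with 247 of 247 compared bases identical. Both globin windows held all 4 motifs, with ATATAA beginning 28 bases before the Hba-a1 start and 30 bases before the Hbb-bs start. The Alas2 window held GATAA and CACCC but neither CCAAT nor ATATAA. Of 32817 RefSeq promoter windows of the same length, 22.6% held GATAA, 52.0% held CACCC, 33.8% held CCAAT and 9.1% held ATATAA, so that a match is a description and not a site shown to be used.

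Depth was even, at 28.8 M to 33.8 M counts a mouse (M, mega counts), with 19341 to 20092 genes detected. The mitochondrial share of the counts was 10.4% in mouse 12 and 5.83% to 8.23% in the other mice; mouse 12 is an N/- female of the high group. Mouse 3, labelled female and a high N/N mouse of set 1, had 36 Xist and 31 Ddx3y counts. The other females had at least 27239 Xist counts and the males at least 2200 Ddx3y counts, so this library follows neither pattern. Results are therefore also given without mouse 12, and mouse 3 was left out in a further fit. Totals averaged 31.5 ± 1.52 M in high and 31.4 ± 1.23 M in low mice (SD, n = 10 each, exact two-sided permutation within the 4 genotype and set combinations, p = 0.757). Permutations within the combinations, here and below, carry no sex term. The permutations of the correlations below shuffle mice without regard to combination or sex.

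The rule genes were rare in every punch. Their summed level ran from 7.14 to 22.1 CPM over the 32 mice, a 3.10-fold range that rested on 218 to 749 counts per mouse and thus on a counting error of 3.65% to 6.77%. It was 12.8 to 22.1 CPM in high mice and 7.14 to 11.7 CPM in low mice, with means of 15.6 ± 2.86 and 9.47 ± 1.37 CPM (SD, n = 10 each). The ratio of the means was 1.65, which the choice of mice fixes and which is therefore not tested. Within the combinations it was 1.69 in N/- mice of set 1, 1.51 in N/- mice of set 2, 1.66 in N/N mice of set 1 and 1.69 in N/N mice of set 2. Thresholds fell between close neighbours in some combinations. In N/- mice of set 1 the lowest high mouse stood at 12.8 CPM and the highest middle mouse at 12.7 CPM, closer than the counting error. In N/N mice of set 2 these values were 15.2 and 14.7 CPM, and in N/N mice of set 1 they were 15.8 and 15.2 CPM. These edges were also closer than the counting error. In N/- mice of set 2 the lowest high and the highest middle mouse stood at 13.01 and 11.3 CPM. At the lower edge, the lowest middle mouse and the highest low mouse stood at 9.46 and 8.57 CPM (N/-, set 1), 10.7 and 9.62 CPM (N/-, set 2), 11.4 and 10.8 CPM (N/N, set 1) and 12.2 and 11.7 CPM (N/N, set 2). The lower edges in N/N mice were also closer than the counting error. Because ranking was within genotype and set, some N/N middle mice lay above N/- high mice.

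**Figure D1:**
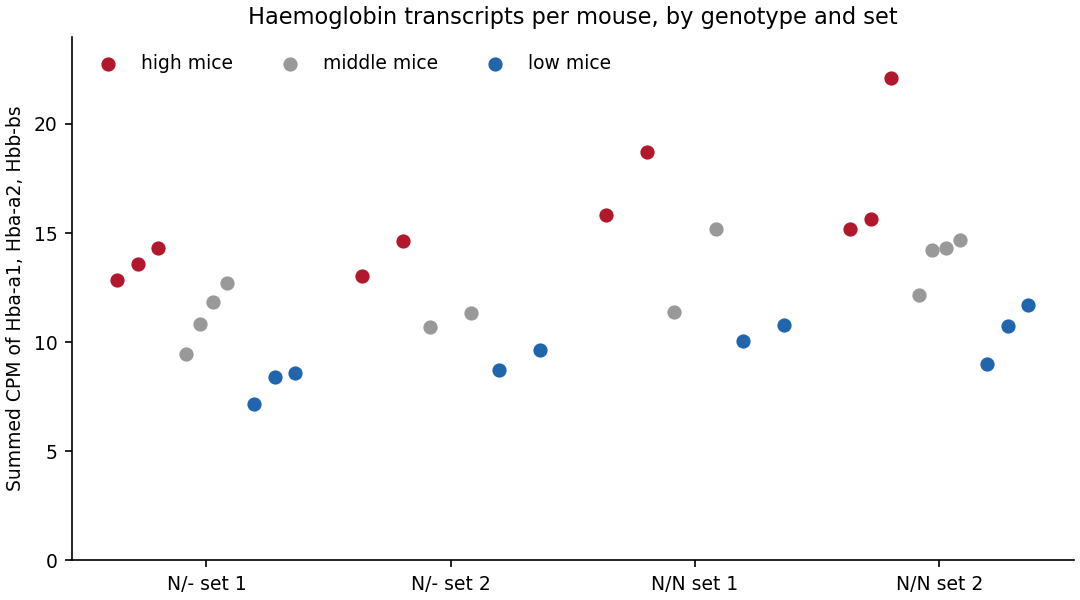
Summed CPM of Hba-a1, Hba-a2 and Hbb-bs in each of 32 mice, in 4 combinations of genotype and set, with high mice in red, middle mice in grey and low mice in blue. Each point is 1 mouse. The 10 high mice lie at 12.8 to 22.1 CPM and the 10 low mice at 7.14 to 11.7 CPM. The spacing to the middle mice is narrowest at the upper edge of N/- set 1.

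The 3 rule genes contributed unequally. Hba-a2 (chromosome 11, 32296492 to 32297310) stood at 8.96 to 16.2 CPM in high mice (median 10.9) and at 5.18 to 7.93 CPM in low mice (median 6.84). Hba-a1 (chromosome 11, 32283672 to 32284486) stood at 3.00 to 5.38 CPM in high mice (median 3.52) and at 1.74 to 3.29 CPM in low mice (median 2.27). Hbb-bs (chromosome 7, 103826523 to 103827928) stood at 0.298 to 0.591 CPM in high mice (median 0.496) and at 0.0600 to 0.640 CPM in low mice (median 0.343). The groups were apart for Hba-a2 and overlapped for the other 2 genes, and Hbb-bs, with 2 to 20 counts per mouse, added almost nothing to the ranking. The split between the α-globin copies is uncertain. In GENCODE transcripts, 67.5% of the 50-base windows of Hba-a1 and 86.9% of those of Hba-a2 also occur in the other copy, and 65.8% of those of Hbb-bs also occur in Hbb-bt. The sources used here do not give how reads with several matches were counted. Of the 1988 windows of Alas2, 0 occurred in another gene.

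The classes changed little when a single sequencing run was ranked. When either run was ranked alone, 9 of the 10 high and 9 of the 10 low mice kept their class. The haemoglobin level averaged 11.1 ± 2.30 CPM in N/- mice and 13.9 ± 3.42 CPM in N/N mice (SD, n = 16 each), a description here since the genotypes were ranked apart.

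The comparison asked which other transcripts differ between punches rich and poor in globin RNA. Only 1 of 16289 tested genes passed the threshold, the β-globin gene Hbb-b1, which rose in high mice. This is 0.00614% of the genes, with 0 genes lower (0%), by edgeR's quasi-likelihood test (Benjamini-Hochberg adjusted p under 0.05) with sex and the 4 combinations as terms. At an unadjusted p under 0.05 there were 1225 genes higher (7.52%) and 1028 lower (6.31%) in high mice. This count rested on single mice: it was 2253 in all 20 mice (13.8%), 1180 without mouse 12 (7.21%) and 3558 without mouse 14. No gene had all 10 high mice above or below all 10 low mice (0% each way). Taken within each of the 4 combinations, all high mice lay above all low mice for 4 genes (0.0246%) and below them for 11 (0.0675%). The 4 were Hbb-b1, the zinc finger gene Zfp503, Tpbgl and Cd68, a lysosomal protein of macrophages and microglia. These 4 are named for their separation, seen after the fit, and the last 3 did not pass the threshold.

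Hbb-b1 was measured at 6.40 to 12.6 CPM in high mice (median 9.60) and at 3.216 to 6.98 CPM in low mice (median 5.67). Only the lowest high mouse overlapped the low group, and in each combination every high mouse stood above every low mouse. The log2 fold change was 0.86 (SE 0.116), or 1.82-fold, and edgeR's quasi-likelihood test gave an adjusted p of 0.0079. The call was lost when the cortical score of the mouse was added as a term (log2 fold change 0.80, adjusted p = 0.230), without the sex term (0.79, adjusted p = 0.0650) and, in fits chosen after seeing the data, with the mitochondrial share (0.78, adjusted p = 0.255), the ribosomal score (0.70, adjusted p = 0.271) or the myelin score (0.80, adjusted p = 0.241) as a term. These 5 adjusted p came from the same edgeR test. Over all settings other than the slopes, DESeq2 and limma voom included, the adjusted p of Hbb-b1 ran from 2.07e-08 to 0.9997. The genes at an unadjusted p under 0.05 then numbered 1546 with the cortical score (9.49%), 693 with the mitochondrial share (4.25%), 563 with the ribosomal score (3.46%) and 961 with the myelin score (5.9%). DESeq2 called 5 genes higher (0.0307%) and 5 lower (0.0307%), and the slope on the haemoglobin level over 32 mice called 4 higher (0.0245%) and 0 lower (0%). Hbb-b1 is a β-globin gene of another haplotype than Hbb-bs, and reads may have been shared out among near-identical β-globin copies, so its identity and its independence from the rule genes are uncertain. Over all 32 mice its log2 CPM followed the log2 haemoglobin level with Pearson's r = 0.88 (permutation p = 1e-05, the smallest that 100000 resamples can give, adjusted p = 1.5e-05 over 3 measures) and Spearman's rho = 0.87 (permutation p = 1e-05). Without the 2 mice farthest from the median, r was 0.83. It was 0.89 in set 1, 0.91 in set 2 and 0.74 within the 12 middle mice.

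Alas2 (chromosome X, 150547417 to 150570622), the erythroid enzyme that starts haem synthesis, ranked second by p. It stood at 2.08 to 4.37 CPM in high mice (median 2.74) and at 1.14 to 2.32 CPM in low mice (median 1.85). The groups overlapped, with 2 high mice inside the range of the low mice. The log2 fold change of 0.74 (SE 0.145), 1.67-fold, did not pass the adjustment over all genes (adjusted p = 0.214, edgeR) but did in DESeq2 (adjusted p = 0.00535). Tested as a single value, its mean log2 CPM was 1.503 ± 0.33 in high mice and 0.82 ± 0.32 in low mice (SD, n = 10 each). The exact two-sided permutation p within the combinations was 0.000417 over 14400 assignments, or 0.00208 adjusted over the 5 single values of this kind. Alas2 was picked for this test with its level in these data already known. Across 32 mice r was 0.75 and rho 0.72 (permutation p = 1e-05 each, the smallest possible, adjusted p = 1.5e-05 for r), and r was 0.66 without the 2 farthest mice. Within set 1 r was 0.85 and within set 2 it was 0.66. Among the 12 middle mice r was 0.50 (permutation p = 0.103), which did not pass.

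**Figure D2:**
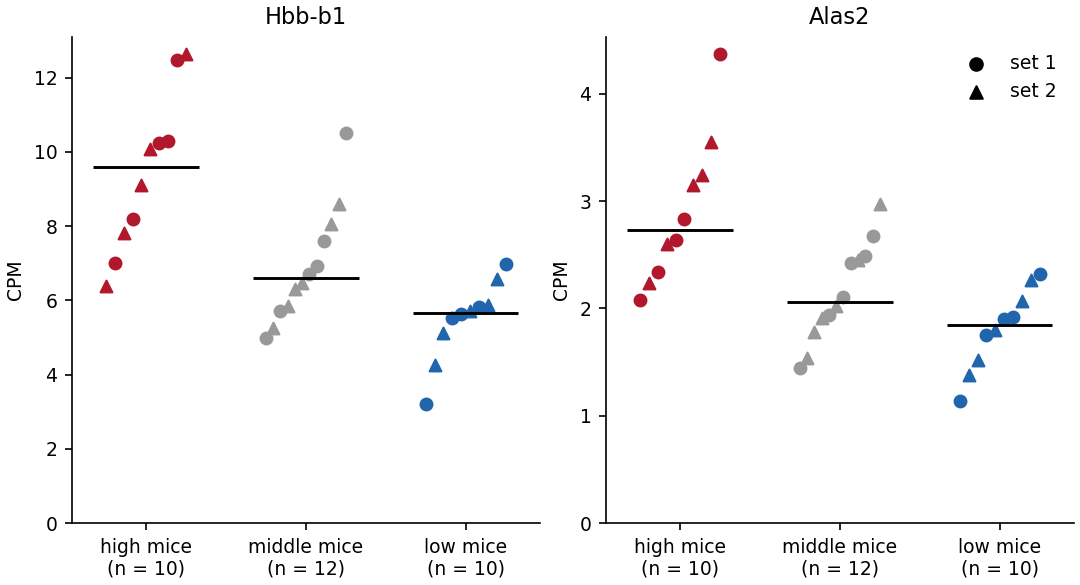
CPM of Hbb-b1 and Alas2 in high, middle and low mice, with circles for set 1 and triangles for set 2 and a line at each median. High mice lie at 6.40 to 12.6 CPM for Hbb-b1 and 2.08 to 4.37 CPM for Alas2, against 3.216 to 6.98 CPM and 1.14 to 2.32 CPM in low mice, with some overlap in both panels.

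Of 8 tested enzymes of haem synthesis, Alas2 included, 0 passed the threshold and 2 were higher at an unadjusted p under 0.05 (background 7.52%). Of the 8, 6 had a positive log2 fold change (50.9% over all genes tested), and their median was 0.06, against 0.0022 over all genes tested. Fech, which inserts the iron, stood at 0.06 (SE 0.0354, adjusted p = 0.461 in edgeR's quasi-likelihood test). Cpox stood at 0.10, Urod at 0.07, Alad at 0.01, Uros at -0.06 and Ppox at -0.11. Haem is made in most cells, and these 6 enzymes were present at medians of 18.4 to 62.5 CPM in high mice and 18.6 to 59.9 CPM in low mice, far above Alas2.

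Genes that mark nucleated red cell precursors were at or near the limit of detection. Of 25 listed red cell and erythroblast genes, 24 had a row and 12 were tested. The most that any mouse had was 10 counts of Slc4a1 (the band 3 anion exchanger), 11 of the factor Klf1, 3 of Rhag and 1 of Gata1. The embryonic globins Hbb-y and Hba-x reached at most 5 and 2 counts, and Hbb-bh1 had none. Of the 12 tested, 0 passed, 7 were positive and the median log2 fold change was 0.05. Bpgm, which makes the oxygen-affinity regulator 2,3-bisphosphoglycerate, stood at 64.4 to 80.2 CPM in high mice and at 60.2 to 70.0 CPM in low mice, a log2 fold change of 0.14 (SE 0.0496, adjusted p = 0.297). The carbonic anhydrase gene Car2, also abundant in oligodendrocytes, stood at 0.20 (SE 0.0837, adjusted p = 0.322). Isg20 stood at 0.40, Epor, the erythropoietin receptor, at 0.11, Ube2l6 at 0.10, Mkrn1 at 0.08 and the mitochondrial iron importer Slc25a37 at 0.02. Negative values included those of Tfrc (transferrin receptor, -0.04), Tal1 (-0.05), Ank1 (-0.06) and Ermap (-0.07). Most of these genes are also made by neurons or glia. The label of blood RNA thus rests on globins and Alas2 in these files, and the punches are called by their haemoglobin level here.

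Markers of other blood cells overlapped between the groups. The summed level of 14 neutrophil genes was 5.35 to 9.88 CPM in high mice and 7.73 to 11.1 CPM in low mice, and only 2 members had enough counts to be tested. That of 12 platelet genes was 25.03 to 29.8 CPM in high mice and 23.2 to 26.8 CPM in low mice. Of the 6 tested platelet genes 2 were positive, with a median of -0.08. Only 1 of them, Gp1bb, was higher at an unadjusted p under 0.05 (background 7.52%). Gp1bb, a subunit of the platelet adhesion receptor, stood at 14.9 to 20.4 CPM in high mice and 13.4 to 17.7 CPM in low mice (log2 fold change 0.22, SE 0.0631, edgeR's adjusted p = 0.281). Many members of these lists were nearly absent: S100a8 reached 5 counts in any mouse, Ppbp 9, Pf4 18, and Cd3e 4. Others reached more, such as Ltf with 157 counts, Lcn2 with 73, Ccr2 with 26 and S100a9 with 23. Of 4 tested lymphocyte genes 2 were positive, and of 3 tested monocyte genes 2. Border macrophages, which line vessels and meninges, had 1 positive value among 7 tested genes and a median of -0.18, and their mannose receptor gene Mrc1 stood at -0.21 (SE 0.0986, adjusted p = 0.356).

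Vessel wall genes also overlapped between the groups. Of 20 endothelial genes, 14 were positive, 0 passed and the median log2 fold change was 0.04. Within set 1, 14 were positive and 0 passed. Within set 2, 9 were positive and 1 passed, against 1.43% called higher over all genes tested there. Their summed level was 605 to 700.3 CPM in high mice (median 637) and 599 to 697 CPM in low mice (median 614). Ly6c1 and Ly6a, surface proteins of capillary endothelium, stood at 0.18 (SE 0.0682) and 0.15 (SE 0.0626). Of 15 genes of pericytes and smooth muscle 8 were positive, with a median of 0.02. Of 14 fibroblast and meningeal genes 7 were positive, with a median of 0.0005 that joins opposite values: 2 of 14 were positive in set 1 (median -0.21) and 12 of 14 in set 2 (median 0.29). The part of vessel content in the haemoglobin level was not tested.

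Beyond Hbb-b1 and Alas2, the 8 genes with the smallest p among those higher in high mice did not pass, with adjusted p of 0.214 to 0.281 by edgeR's quasi-likelihood test. Slc25a1, the mitochondrial citrate carrier, stood at 45.0 to 53.9 CPM in high mice (median 47.6) and 38.6 to 45.9 CPM in low mice (median 42.7), a log2 fold change of 0.19 (SE 0.0373). Tsc22d4, a leucine zipper regulator, stood at 80.7 to 106 CPM in high mice (median 91.6) and 73.9 to 88.2 CPM in low mice (median 79.8), at 0.24 (SE 0.0474). The groups overlapped in both, though most high mice lay above most low mice. Bola1, an iron-sulfur protein of mitochondria, stood at 0.38 (SE 0.077), the major histocompatibility gene H2-K1 at 0.21 (SE 0.0471) and Id3, an inhibitor of basic helix-loop-helix factors, at 0.24 (SE 0.0551). Cacna2d4, a calcium channel subunit, stood at 0.32, Gm5637 at 0.33 and Papss2, which makes the sulfate donor of the cell, at 0.23.

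Among genes lower in high mice the 10 with the smallest p did not pass either, with adjusted p of 0.214 to 0.281 by edgeR's quasi-likelihood test. Arhgap26, a GTPase-activating protein, stood at 75.8 to 112 CPM in high mice (median 98.9) and 107 to 119.6 CPM in low mice (median 117), a log2 fold change of -0.24 (SE 0.0491). Grik3, a kainate receptor subunit, stood at 114 to 169.9 CPM in high mice (median 145) and 154 to 181 CPM in low mice (median 167), at -0.22 (SE 0.0451). The low groups were tight in both genes and the high groups reached further down. Agbl4 stood at -0.52 (SE 0.111), Catsperg1 at -0.92 (SE 0.197) with medians of only 0.428 CPM in high and 0.695 CPM in low mice, Usp35 at -0.25 and the sulfatase gene Sulf1 at -0.41. The others were the protocadherin Pcdh1 (-0.22), Trim66 (-0.38), the nitric oxide synthase adaptor Nos1ap (-0.33) and the semaphorin receptor Plxna4 (-0.32).

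The genes whose residual log2 CPM across all 32 mice was most like that of the rule genes, after removing combination and sex, were Hbb-b1 (Pearson's r = 0.92), Alas2 (0.78), Gm5637 (0.76), Tsc22d4 (0.73), Tnfrsf1a (0.70) and Slc25a1 (0.69). Arpc1b, Pde6d, Prss56 and Zfp775 followed at 0.65 each. These coefficients describe 1 set of libraries, and the mice overlap with those compared above.

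Groups of brain genes lay to one side without any member passing. All 14 myelin genes had positive values, all 14 with an unadjusted p under 0.05 (background 7.52% in this direction), and their median log2 fold change was 0.27. Mbp, myelin basic protein, stood at 3438 to 6359 CPM in high mice (median 5163) and 3293 to 5060.0 CPM in low mice (median 4099), a log2 fold change of 0.33 (SE 0.104, adjusted p = 0.281). Apod stood at 66.5 to 97.8 CPM in high mice (median 86.7) and 61.8 to 87.6 CPM in low mice (median 69.0), at 0.29 (SE 0.0878). The groups overlapped in both genes. The fitted median of this list was 0.31 within set 1 and 0.45 within set 2. Without a sex term, the high minus low difference in its mean log2 CPM was 0.30 in set 1 and 0.16 in set 2. Without mouse 30 only 6 of its 14 genes had an unadjusted p under 0.05, without mouse 28 only 9. Over the 12 middle mice alone, 1 of the 14 genes had a positive slope on the haemoglobin level.

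All 13 mitochondrially encoded genes were positive, 12 of them with an unadjusted p under 0.05 (background 7.52% in this direction). Their median was 0.21, and 0.11 without mouse 12. Within set 1 alone the 12 came to 2 (background 797 of 16249 genes), with a median of 0.24. Within set 2 alone they came to 4 (background 1750 of 16413 genes), with a median of 0.12. ATP6, a subunit of ATP synthase, stood at 358 to 767 CPM in high mice (median 433) and 331 to 498 CPM in low mice (median 376), a log2 fold change of 0.30 (SE 0.0772, adjusted p = 0.281). COX2, a subunit of cytochrome c oxidase, stood at 0.24 (SE 0.0695). The mitochondrial share of all counts was 7.53 ± 1.10% in high mice and 6.92 ± 0.36% in low mice (SD, n = 10 each), with an exact two-sided permutation p of 0.0447 that came to 0.112 when adjusted over 5 single values. Across all 32 mice this share and the haemoglobin level had r = 0.21 (permutation p = 0.240, adjusted p = 0.240) and rho = 0.32 (permutation p = 0.0761). Without the 2 farthest mice r was 0.16, within set 1 it was 0.18 and within set 2 it was 0.61, so no relation over both sets was shown.

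Of 33 tested cytosolic ribosomal protein genes, 31 were positive and 21 had an unadjusted p under 0.05 (background 7.52% in this direction), with a median of 0.18. Without mouse 12 the 21 came to 7 (background 4.11%) and the median to 0.10, and without mouse 28 to 11 and 0.15. Within set 1 alone the 21 came to 1 (background 797 of 16249 genes), with a median of 0.15. Within set 2 alone they came to 22 (background 1750 of 16413 genes), with a median of 0.26. Rpl13a stood at 91.5 to 151 CPM in high mice (median 103.9) and 86.7 to 104.5 CPM in low mice (median 96.6), a log2 fold change of 0.23 (SE 0.0732, adjusted p = 0.281). The groups overlapped. Processed copies of these genes may share their reads, so single values are uncertain.

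Genes of cortical glutamatergic neurons lay lower in high mice over all, with fitted medians of opposite sign in the sets. Of 16 such genes 1 was positive, 12 had an unadjusted p under 0.05 (background 6.31% in this direction), and the median log2 fold change was -0.55. Without mouse 3 the 12 came to 6, and without mouse 1 to 7. Nptx1, a neuronal pentraxin, stood at 82.5 to 213 CPM in high mice (median 115) and 142 to 331 CPM in low mice (median 182), a log2 fold change of -0.60 (SE 0.189, adjusted p = 0.281). Tshz3 stood at 10.01 to 19.2 CPM in high mice and 13.3 to 30.4 CPM in low mice, at -0.46 (SE 0.136). The median of the list was -1.13 within set 1 and 0.14 within set 2. The mean log2 CPM of the 16 genes was 4.19 to 4.33 in the 5 high mice of set 1 and 4.73 to 5.99 in its 5 low mice, with no overlap. In set 2 it was 4.53 to 5.24 in high mice (average 4.84) and 4.83 to 5.23 in low mice (average 4.94), and the groups overlapped. These averages lay slightly lower in high mice, while the positive set 2 median comes from the fit with a sex term. Genes shared by striatal projection neurons lay the other way, with 18 of 18 positive and a median of 0.17, which was 0.36 within set 1 and -0.07 within set 2. Gng7, a G protein subunit, stood at 0.27 (SE 0.109, adjusted p = 0.310) and Ppp1r1a at 0.17 (SE 0.0554). Of the 10 genes of D1 and the 10 of D2 projection neurons, 9 each were positive, with medians of 0.16 and 0.24. Within set 1, 9 each were positive, with medians of 0.33 and 0.36. Within set 2, 2 of the D1 genes (median -0.07) and 5 of the D2 genes (median 0.025) were positive. The share of cortical tissue in a punch was not measured apart from these genes, and its part in the differences was not tested.

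**Figure D3:**
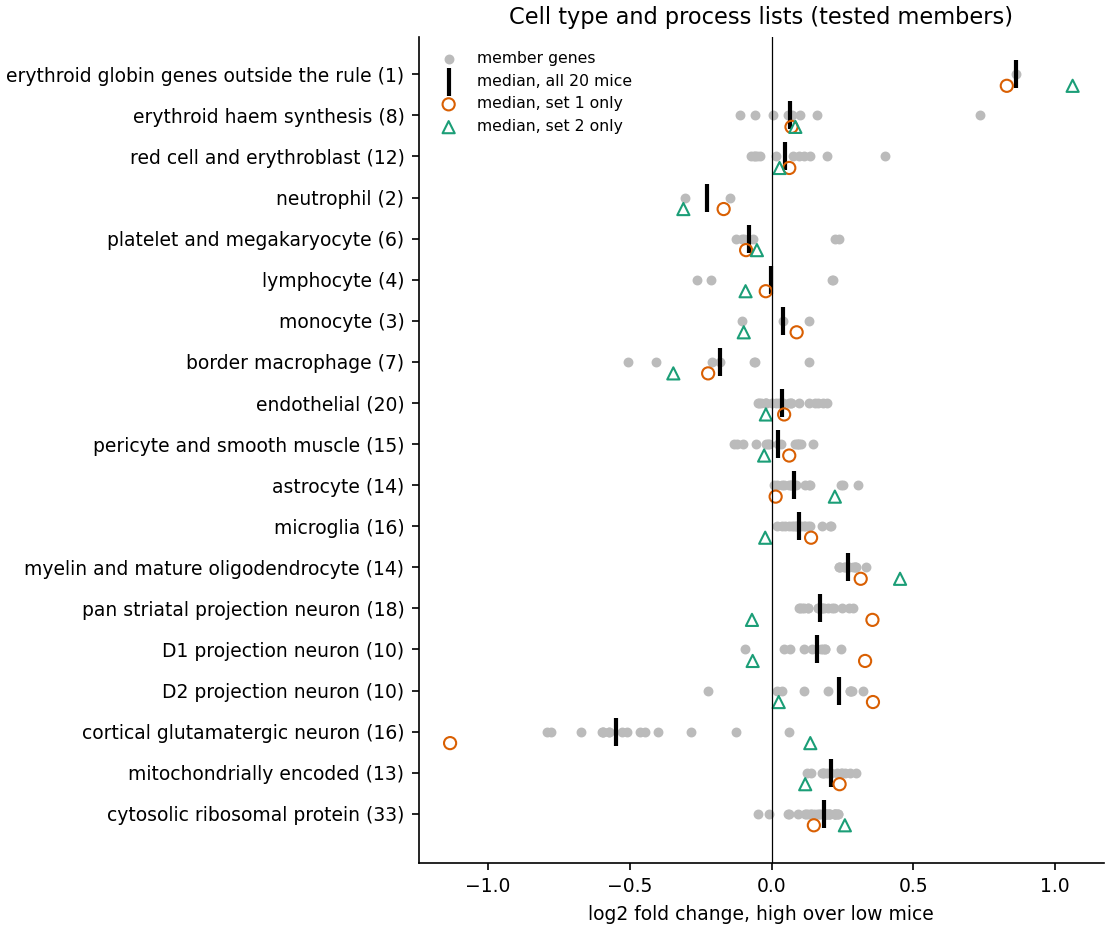
Log2 fold change of high over low mice for the tested members of 19 lists, with the number tested in brackets, a grey point per gene and a black bar at the median of all 20 mice. Open circles and triangles give the medians within set 1 and set 2, from fits with a sex term. The cortical median is -1.13 in set 1 and 0.14 in set 2, while the myelin median is positive in both.

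Other brain cell types showed small values. All 14 astrocyte genes and all 16 microglial genes were positive, with medians of 0.08 and 0.10. Without mouse 12, 13 of the 16 microglial genes were positive (median 0.04), and without mouse 28, 12 of the 14 astrocyte genes were (median 0.02). The astrocyte median was 0.014 in set 1 and 0.22 in set 2. Within set 2, 3 of the 14 astrocyte genes passed, against 1.43% called higher over all genes tested there. The microglial median was 0.14 in set 1 and -0.023 in set 2. S100b, a calcium-binding protein of astrocytes, stood at 109 to 200.7 CPM in high mice and 110.0 to 129.6 CPM in low mice (log2 fold change 0.25, SE 0.0775), and C1qa, a complement gene of microglia, at 0.20 (SE 0.0653). Olig1, a factor of the oligodendrocyte lineage, stood at 0.28 (SE 0.0884), and of 10 precursor genes of that lineage 7 were positive (median 0.07). Of 12 genes of striatal interneurons 6 were positive (median 0.02). At an unadjusted p under 0.05, 2 of them were higher (background 7.52%) and 1 was lower (background 6.31%). The 2 higher ones, Slc18a3 and Lhx8 of cholinergic interneurons, stood at 0.35 (SE 0.0955) and 0.36 (SE 0.146). Each was higher in set 1 (0.55 and 0.74) than in set 2 (0.13 and -0.08). None of these passed the threshold in all 20 mice.

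Processes that might accompany blood or iron gave mixed values. Of 17 tested genes of iron and haem handling, 10 were positive and the median was 0.05. Fth1, the ferritin heavy chain, stood at 1226 to 1849 CPM in high mice (median 1434) and 1154 to 1431 CPM in low mice (median 1282), a log2 fold change of 0.27 (SE 0.0712, adjusted p = 0.281), and the oligodendrocyte-rich transferrin gene Trf at 0.27 (SE 0.0934). Of 18 hypoxia-responsive genes 10 were positive (median 0.03), among them Egln1, an oxygen-sensing hydroxylase, at 0.14 and Ndrg1 at 0.23. Of 4 tested genes of endothelial activation and acute inflammation 3 were positive (median 0.03), while Il6, Tnf, Ccl2 and Cxcl1 had at most 8, 5, 10 and 5 counts in any mouse. Immediate early genes had a median of 0.12 with 12 of 16 positive. Junb stood at 23.04 to 60.5 CPM in high mice (median 29.3) and 17.8 to 36.0 CPM in low mice (median 22.9), at 0.49 (SE 0.157), and Egr4 at 0.36 (SE 0.131), none past the threshold. Glucocorticoid-responsive genes had 10 of 14 positive (median 0.05), with 13 of 14 in set 1 (median 0.15) and 5 of 14 in set 2 (median -0.14). The metallothioneins Mt1 and Mt2 stood at 0.22 and 0.16. Of 15 clock genes 7 were positive (median -0.0008), with 13 of 15 in set 1 (median 0.07) and 3 of 15 in set 2 (median -0.13), where Per3 (-0.54, edgeR's adjusted p = 0.0378) and Ciart (-0.91, adjusted p = 0.0325), named after their values were seen, fell. Of 12 heat shock genes 3 were positive (median -0.02), with 1 of 12 in set 1 and 11 of 12 in set 2. In all, 14 of 33 lists had fitted medians of opposite sign in the sets. With the sex term, those of set 2 rest mainly on its 2 high females. Without that term, set 2 differences in mean log2 CPM were -0.10 (cortical), 0.031 (microglial) and 0.040 (endothelial), opposite in sign to the fitted medians. The striatal projection neuron, myelin, ribosomal, mitochondrial and astrocyte lists kept their sign. Of 12 interferon-stimulated genes 11 were positive (median 0.11), 0 of them with an unadjusted p under 0.05. Within set 1, 10 of the 12 were positive (median 0.08) and 0 passed. Within set 2, 11 were positive (median 0.30) and 2 passed, against 1.43% called higher over all genes tested there. Of 8 tested choroid plexus genes 5 were positive (median 0.08), and of 10 ependymal genes 7 (median 0.03).

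**Figure D4:**
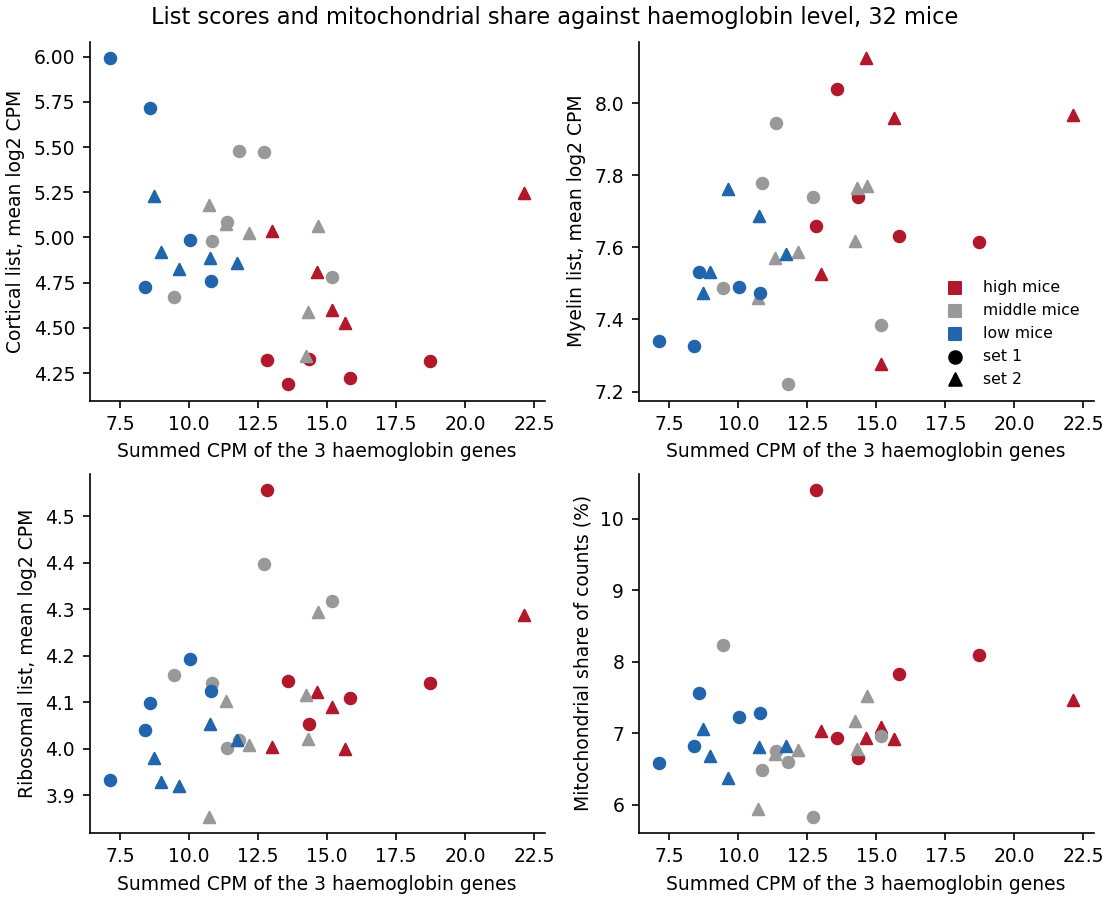
Mean log2 CPM of the cortical, myelin and ribosomal lists and the mitochondrial share of counts against the summed CPM of the 3 haemoglobin genes in 32 mice, with high mice in red, middle mice in grey, low mice in blue, circles for set 1 and triangles for set 2. In set 1 the cortical score is 4.19 to 4.33 in high mice and 4.73 to 5.99 in low mice, and mouse 12 has the highest mitochondrial share, 10.4%.

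The differences were graded by transcript length. Of the tested genes, 15518 (95.3%) had an annotated transcript length, taken as the longest GENCODE transcript, and were divided into 5 bins of about equal size. The median log2 fold change was 0.058 for the shortest transcripts (64 to 1905 bases), 0.023 and 0.003 in the next bins, -0.0086 for 3853 to 5226 bases and -0.045 for the longest (5227 bases and more). In the shortest bin 68.2% of genes were positive and in the longest 31.2%. The shortest and the longest bin had medians of 0.047 and -0.021 in set 1, 0.12 and -0.11 in set 2, and 0.035 and -0.026 without mouse 12. With the ribosomal list score as a further term, chosen after seeing the data, they were 0.0019 and 0.011. The globin transcripts are among the shortest, at 554 to 699 bases for the rule genes, while Alas2 has 2037. The part of RNA quality or library preparation in this gradient was not tested.

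**Figure D5:**
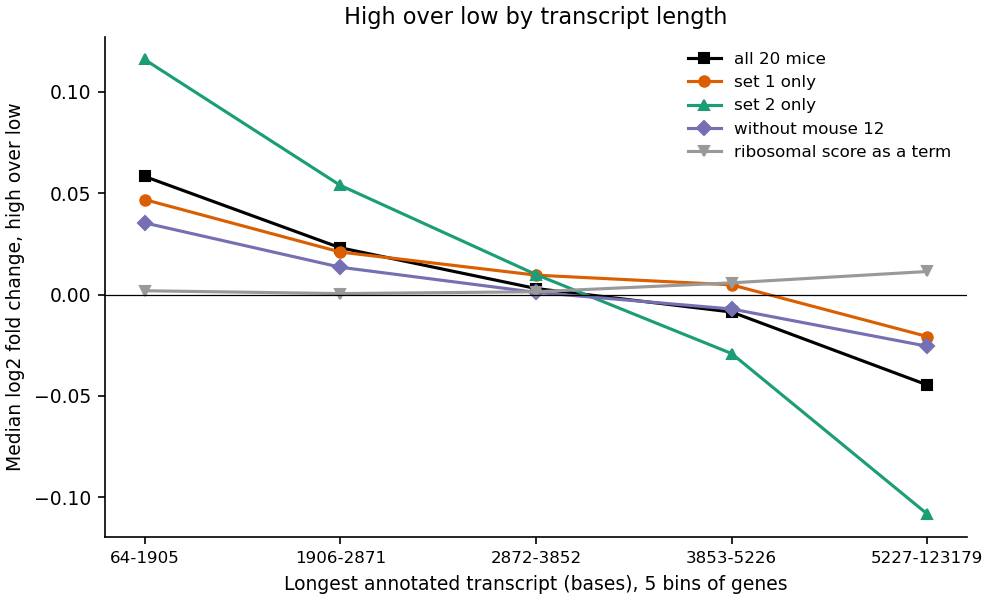
Median log2 fold change of high over low mice in 5 bins of genes by the length of their longest annotated transcript, for all 20 mice, each set alone, all but mouse 12, and with the ribosomal score as a term. The medians for all mice are 0.058 in the shortest and -0.045 in the longest bin, with the widest span in set 2 and values of 0.0019 and 0.011 with the ribosomal score added.

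The sets gave different numbers of genes. Within set 1 no gene passed in either direction (0%, with 1864 of 16249 at an unadjusted p under 0.05, 11.5%), while within set 2 there were 235 genes higher (1.43%) and 299 lower (1.82%) in high mice by edgeR's quasi-likelihood test. Of these 534 genes, 369 (69.1%) had the same sign in set 1 and 165 the opposite sign, against 54.6% with the same sign among all 16182 genes tested in both sets. Passing in set 2 were Hbb-b1 (log2 fold change 1.06, SE 0.153, adjusted p = 0.0190), Alas2 (0.93, SE 0.202, adjusted p = 0.0357), Tsc22d4, Id3, Papss2, Bpgm, Car2, S100b, Olig1, Fth1, ATP6 and Rpl13a among the higher named genes and Nos1ap and Plxna4 among the lower named genes. The test of the difference between sets called 0 genes (smallest adjusted p = 0.224, 1498 genes or 9.2% at an unadjusted p under 0.05). The larger count in set 2 is therefore not shown to be a different effect. All 5 low mice of set 2 were female, so the sex term takes up its 3 high males. The set 2 calls thus rest mainly on 2 high and 5 low females. Within set 1, class and sex cannot be told apart in N/N mice, so its values lean on the sex term too.

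The genotypes were also set side by side. Within N/- mice 0 genes were higher (0%) and 1 was lower (0.00611%), the calcium channel gene Cacna1d, and within N/N mice none passed (0%, with 282 genes or 1.73% at an unadjusted p under 0.05). Hbb-b1 stood at 1.02 (SE 0.196) in N/- and 0.84 (SE 0.149) in N/N mice, and Alas2 at 0.58 (SE 0.274) in N/- and 0.83 (SE 0.185) in N/N mice. List medians in N/- and N/N mice were 0.42 and 0.15 (myelin), 0.43 and 0.14 (mitochondrial), 0.38 and 0.10 (ribosomal) and -0.85 and -0.29 (cortical). Within N/N mice, 0 of 14 myelin, 0 of 33 ribosomal and 5 of 13 mitochondrial genes were higher at an unadjusted p under 0.05. That background was 106 of 16311 genes. Within N/- mice these numbers were 8, 26 and 10, with a background of 1784 of 16359 genes. All low N/- mice were female, so the sex term takes up the high N/- males. The N/- values and the Cacna1d call thus rest mainly on 1 high female in each set, mouse 12 and mouse 30. The test of the difference between genotypes called 0 genes (smallest adjusted p = 0.992, 406 genes or 2.49% at an unadjusted p under 0.05). A last fit over all 32 mice placed the haemoglobin level beside genotype. Cyfip2 fell (log2 fold change N/- over N/N -0.87, SE 0.0485, adjusted p = 3.97e-14) and the homeobox gene En2 rose (1.31, SE 0.128, adjusted p = 9.33e-08), and no other gene passed in edgeR's quasi-likelihood test, with 0.00612% called in each direction. Without the haemoglobin term the same 2 genes passed, at -0.84 and 1.32. The number of genes with an unadjusted p under 0.05 for genotype was 446 (2.73%) with the term and 1023 (6.26%) without it.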

How the data were processed

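Total RNA from striatal punches was sequenced as stranded mRNA libraries with 50-base single-end reads, per the labels' protocols. The authors deposited raw counts per gene, 1 table per sequencing run and 64 in all, with Entrez identifiers. Per the submitters' processing notes, FastQC 0.11.3, Subread, featureCounts, edgeR 3.8.6 and limma 3.22.7 were used with mm10, while the series text names another aligner and counter, so which pair made the counts is not settled. Not given in the sources used here are the annotation version, how multi-mapping reads were treated and whether strand was used. Of 27179 identifiers, 25275 matched RefSeq symbols of GRCm38.p6 (also called mm10), and the other 1904 (0.766% of all counts) were kept under their identifiers.

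The 2 runs of a mouse were summed, so that 1 mouse is 1 replicate. Litters are not labelled, and p-values measure the spread between mice. High and low mice were compared with edgeR 4.0.16 in R 4.3.3 (filterByExpr, TMM scaling, robust quasi-likelihood F test) with the 4 genotype and set combinations and sex as terms. P-values were adjusted by Benjamini-Hochberg over all tested genes other than the 3 rule genes, which received no test. SE is the absolute log2 fold change divided by the square root of F. CPM values are scaled by TMM factors, except the rule level and rule genes, which use library totals. At the median total of 31.8 M, 1 CPM stands for about 31.8 counts. Single values of the mice (library total, TMM factor, mitochondrial share, genes detected, Alas2) were tested by exact permutation within the combinations. Correlations were tested by shuffling the mice, without regard to combination or sex. Lists are described by counts and medians without a test. The fits were tested on simulated data with known changes. Python 3.11.15, SciPy 1.17.1, limma 3.58.1 and DESeq2 1.42.0 served the other computations and alternatives.

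The named genes are the 10 with the smallest p in each direction, every tested member of the 3 erythroid lists, and from each other list up to 2 members with the smallest p under 0.05, except sex-linked genes. A few genes that this rule or the lists hold are not reported here; they stay in the fits and in the counts and medians of the lists. The alternatives were other scaling, no filter on low counts, DESeq2 and limma voom, other terms, cage as a random effect, single sets and genotypes, slopes on the haemoglobin level, ranking and testing on different runs, and each mouse left out. The members and the gene lists were chosen with earlier results of these data known.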

Additional observations from a re-analysis of the deposited data

Results flagged for a closer look

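In 142 groups of 10 mice (each named gene and 4 measures of the library, in high and in low mice), 13 had 1 mouse apart from the other 9 by a gap above Dixon's 95% critical value. Chance alone gives about 1 in 20 such groups. Mouse 12 (N/-, set 1, female) accounted for 4 of them among high mice: a mitochondrial share of 10.4% against 6.66% to 8.09% in the others, ATP6 at 767 CPM against 358 to 541 CPM, COX2 at 655 CPM against 331 to 501 CPM, and S100b at 200.7 CPM against 109 to 155 CPM. Without this mouse the log2 fold changes, high over low, were 0.19 for ATP6 and 0.16 for S100b.

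The other high mice apart were mouse 2, with Ank1 at 50.2 CPM against 28.3 to 36.1 CPM, and mouse 16, with Junb at 60.5 CPM against 23.04 to 40.4 CPM. Among low mice, mouse 4 had Trim66 at 44.3 CPM against 28.7 to 34.4 CPM and Tshz3 at 30.4 CPM against 13.3 to 22.1 CPM. Mouse 19 had Alad at 20.7 CPM against 17.2 to 18.7 CPM and Ly6a at 21.3 CPM against 16.7 to 18.3 CPM. Mouse 20 had Catsperg1 at 1.65 CPM against 0.562 to 0.978 CPM, mouse 24 had Junb at 36.0 CPM against 17.8 to 24.0 CPM, and mouse 25 had Ube2l6 at 1.38 CPM against 2.08 to 2.67 CPM.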

How the results depend on the processing

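The call of Hbb-b1 held in 20 of 20 fits that left out 1 mouse (1 gene higher and 0 lower in each, log2 fold change 0.80 to 0.93, adjusted p 0.00282 to 0.0486). It also held with RLE size factors, no filter on low counts, limma voom, additive genotype and set terms, a choroid score, cage as a random effect, without mouse 3 and when mice were ranked on 1 run and tested on the other. DESeq2 called 5 genes higher (Hbb-b1, Alas2, Slc25a1, Tsc22d4, Bola1) and 5 lower (Grik3, Arhgap26, Agbl4, Usp35, Sulf1). The slope over 32 mice called 4 higher (Hbb-b1, Alas2, Tsc22d4, Gm5637). Set 2 alone called 235 higher and 299 lower, and N/- mice alone 0 higher and 1 lower. With the sex term, set 2 alone rested mainly on 2 high females, and N/- mice alone on 1 high female in each set. The count of higher genes was 0 with no sex term, with the cortical score added, in set 1 alone, in N/N mice alone and, chosen after seeing the data, with the mitochondrial share, the ribosomal score or the myelin score added. In these fits the log2 fold change of Hbb-b1 was 0.79, 0.80, 0.83, 0.84, 0.78, 0.70 and 0.80, in that order. The slope over the 12 middle mice also called 0 genes higher, with a slope of 1.82 for Hbb-b1 per log2 unit of the haemoglobin level. The number of genes at an unadjusted p under 0.05 was 693, 563 and 961 with the 3 added terms, against 2253. No paired analysis was possible because replicate numbers are mouse numbers and no number is shared by different mice. The cause of these changes was not tested.

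Of 1406 log2 fold changes or slopes of named genes under other settings 44 changed sign, none of Hbb-b1, the gene that passed in all 20 mice; Bola1, Arhgap26 and Sulf1 among them passed in DESeq2, and ATP6 and Car2 in set 2. Without the sex term, it was Ermap (0.00199). With the cortical score, they were Ank1 (0.0441), Slc25a37 (-0.106), Tfrc (0.0298), Epor (-0.0214) and Isl1 (-0.0342). In set 1 alone, they were Alad (-0.0252), Ermap (0.0212) and Ube2l6 (-0.0305). In set 2 alone, they were Uros (0.0167), Slc25a37 (-0.18), Epor (-0.0678), Ly6a (-0.00762), Nptx1 (0.12) and Lhx8 (-0.0802). In N/- mice, they were Ermap (0.241) and Slc25a37 (-0.0166). In N/N mice, it was Tfrc (0.0597). In the slope over 32 mice, it was Slc25a37 (-0.012). In the slope over the 12 middle mice, they were Bola1 (-0.116), Cacna2d4 (-1.45), Arhgap26 (0.0245), Sulf1 (0.344), Cpox (-0.137), Slc25a37 (-0.635), Mrc1 (0.982), Mbp (-0.471), Trf (-0.281) and ATP6 (-0.273). Without mouse 3, it was Slc25a37 (-0.00171). Without mouse 12, it was Alad (-0.0226). With the mitochondrial share, they were Alad (-0.0557), Tal1 (0.0285), Ank1 (0.0255) and Tfrc (0.00177). With the ribosomal score, they were Alad (-0.0727), Tal1 (0.0833), Ank1 (0.022) and Tfrc (0.0606). With the myelin score, they were Cpox (-0.0579), Ermap (0.0116), Tfrc (0.0226), Car2 (-0.00858) and Ndrg1 (-0.0193). With 1 mouse left out, Slc25a37 lay between -0.0428 and 0.0646, Alad lay between -0.0258 and 0.0281, Ermap lay between -0.211 and 0.0159 and Tfrc between -0.104 and 0.00629. At 218 to 749 counts of the rule genes per mouse, the ranking itself is limited by counting error near its thresholds.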
